A study of Drosophila melanogaster with 3 samples.

Results

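Below the reproducible peaks of the CG3919-eGFP binding map lay 1337 weak promoter candidates, out of 30000 candidate regions that the authors listed for the pooled replicates. They were chosen by 3 criteria. A candidate overlapped none of the 9569 reproducible peaks, its summit lay within 500 bp of the transcription start site (TSS) of a protein-coding gene, and each of the 3 replicate lists held a candidate region that overlapped it. Because the first and the last criterion were read from the same lists, the signal, the ranks and the presence of a candidate in each replicate are given below as a description, without a test. The map came from chromatin immunoprecipitation followed by sequencing (ChIP-seq) on whole Drosophila melanogaster prepupae of mixed sex, in 1 group of 3 biological replicates. All animals belonged to 1 transgenic line in which CG3919 carries a C-terminal GFP, and chromatin bound by the fusion was pulled down through the GFP. The age of the animals is unknown per the labels, and 1 control file served all 3 replicates. With 1 group there was no second condition, so regions were compared with other regions of the same map. The lists hold no read counts and no read depth is given, so intervals cover counting error only.

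CG3919 belongs to the MADF-BESS family of DNA-binding proteins. In flies, promoters of broadly expressed genes are often bound by factors such as DREF, BEAF-32 and M1BP at short fixed sequences, whereas many developmentally regulated promoters carry GAGA repeats, an Initiator or a TATA box. The GAGA factor, the product of Trl, binds GAGA repeats and keeps promoter chromatin accessible. ChIP-seq gives a ranked continuum of enrichment, and the irreproducible discovery rate (IDR) procedure draws a line through it at the depth where the ranks of replicates stop matching. Regions below that line are not called sites. In whole animals, weak binding in many cells and strong binding in few cells cannot be told apart.

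Windows of 101 bases centred on the summit show the range of sequence among the strongest candidates. They are the 4 of the 12 strongest that could be shown, read from the RefSeq genome of Release 6 (dm6) 5′ to 3′ on the strand of the nearest coding gene, with matches to any of 20 short motifs in capitals. The window of grn, a GATA factor gene, was chr3R:8181531-8181631 on the minus strand and held a CA repeat (CACACACA). That of CG13255 was chr3L:20837229-20837329 on the plus strand and held a TATA box (TATAAA) and, on the opposite strand, an Initiator (TCAGTT) that overlaps it, a Su(H) match (TGGGAA) and a nuclear receptor core (AGGTCA). The window of ras, the gene of IMP dehydrogenase, was chrX:10743967-10744067 on the plus strand and ended in an E-box (CAGCTG). That of CG2003 was chr3R:31977708-31977808 on the plus strand and held a nuclear receptor core alone. AT content ran from 40.6% at grn through 46.5% at ras and 61.4% at CG2003 to 72.3% at CG13255, and no motif was shared by all 4 windows.
grn: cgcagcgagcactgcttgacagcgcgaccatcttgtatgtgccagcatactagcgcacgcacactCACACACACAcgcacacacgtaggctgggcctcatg
CG13255: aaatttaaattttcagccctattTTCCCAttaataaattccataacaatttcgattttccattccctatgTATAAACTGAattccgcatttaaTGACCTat
ras: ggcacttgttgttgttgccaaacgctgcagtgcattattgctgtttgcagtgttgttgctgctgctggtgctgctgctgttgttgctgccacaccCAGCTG
CG2003: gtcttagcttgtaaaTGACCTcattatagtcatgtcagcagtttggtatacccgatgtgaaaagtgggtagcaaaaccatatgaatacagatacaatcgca

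A second set was chosen after the values were seen, because GAGA matches turned out to be more frequent at the promoters described below. It holds the 4 showable candidates with the most matches to GAGAG or its complement CTCTC, both in capitals. CG32813, with 15 overlapping matches, was read at chrX:1388164-1388264 on the plus strand, in an intron 354 bp upstream of a TSS. The window of sog, which encodes an extracellular antagonist of Dpp signalling, had 12 matches at chrX:15633504-15633604 on the minus strand. Doc2, a T-box factor gene, had 9 at chr3L:9019414-9019514 on the minus strand, and Eip93F, an ecdysone-induced regulator of metamorphosis, had 6 at chr3R:21948892-21948992 on the plus strand. These were weaker candidates, with pooled ranks of 16737 at CG32813, 16186 at sog, 16364 at Doc2 and 13304 at Eip93F. Of all 1337 members, 275 (20.6%) had a GAGA match in this window and 56 (4.19%) had 3 or more.
CG32813: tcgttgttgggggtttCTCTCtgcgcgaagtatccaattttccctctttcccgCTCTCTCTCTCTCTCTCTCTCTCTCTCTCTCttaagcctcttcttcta
sog: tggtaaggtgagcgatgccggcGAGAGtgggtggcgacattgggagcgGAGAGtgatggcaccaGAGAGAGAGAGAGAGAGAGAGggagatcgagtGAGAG
Doc2: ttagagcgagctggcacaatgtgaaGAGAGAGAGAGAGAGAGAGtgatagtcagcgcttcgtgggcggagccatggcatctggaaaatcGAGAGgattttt
Eip93F: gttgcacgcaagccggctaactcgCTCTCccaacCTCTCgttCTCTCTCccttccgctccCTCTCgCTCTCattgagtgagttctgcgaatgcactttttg

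The candidates followed the reproducible peaks without a gap in signal. The authors' pooled signal, of unstated scale, ran from 41.3 to 161 with a median of 106 in the weak promoter candidates, against 161.2 to 7418 with a median of 331 in the 2846 reproducible promoter peaks that also had a candidate in all replicates. Just inside the boundary stood Idgf6, which encodes a secreted chitinase-like growth factor, at rank 9575 and a signal of 161.01. It was followed by step at 9583, grn at 9586, Hayan at 9590 and CG13255 at 9597. Just outside stood Mst87F, a gene of the male germ line, at rank 9568 and a signal of 161.212, then Coa7 at 9566, Aldh-III at 9564, CG3355 at 9560 and numb at 9558. The 10 regions on both sides of the line thus lay within about 1 unit of signal of each other. The −log10 q-values of the candidates ran from 0.161 to 2.86 with a median of 1.36.

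In the 3 replicates the 12 strongest candidates scattered around the line. Idgf6 (2R, 16691281 to 16691716, dm6) ranked 11277, 9771 and 8893 in replicates 1, 2 and 3. The candidate at step (2L, 21753450 to 21753885), which encodes an activator of Arf GTPases, ranked 14672, 16409 and 6687, so a high place in replicate 3 stood beside low places in the others. grn ranked 6825, 18281 and 9615, and Hayan, the gene of a serine protease of the melanization cascade, ranked 13368, 6579 and 12938. In each of these 3 genes 1 replicate alone placed the region above rank 9569. grn had the widest scatter of the 12, with a mean rank of 11574 ± 5974 (SD, n = 3), and ras, at 8311, 19430 and 11680, came next, with a mean of 13140 ± 5702 (SD, n = 3). CG15247 had the narrowest, at 10929, 10113 and 10053, with a mean of 10365 ± 489 (SD, n = 3). The candidate at sd, the gene of the TEAD factor that pairs with Yorkie, was 2 bp upstream of a TSS and ranked 8740, 7163 and 11745. The reproducible peaks named just outside the boundary scattered as well. Aldh-III ranked 24816, 11924 and 7308, with an SD of 9074 (n = 3), wider than any of the 12. The SD was 2234 at Mst87F, 2280 at Coa7, 1762 at CG3355 and 2786 at numb (n = 3 each), within the range of the 12. The replicate scatter of these neighbours thus overlapped that of the 12, both sets having been picked by pooled rank.

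**Figure D1:**
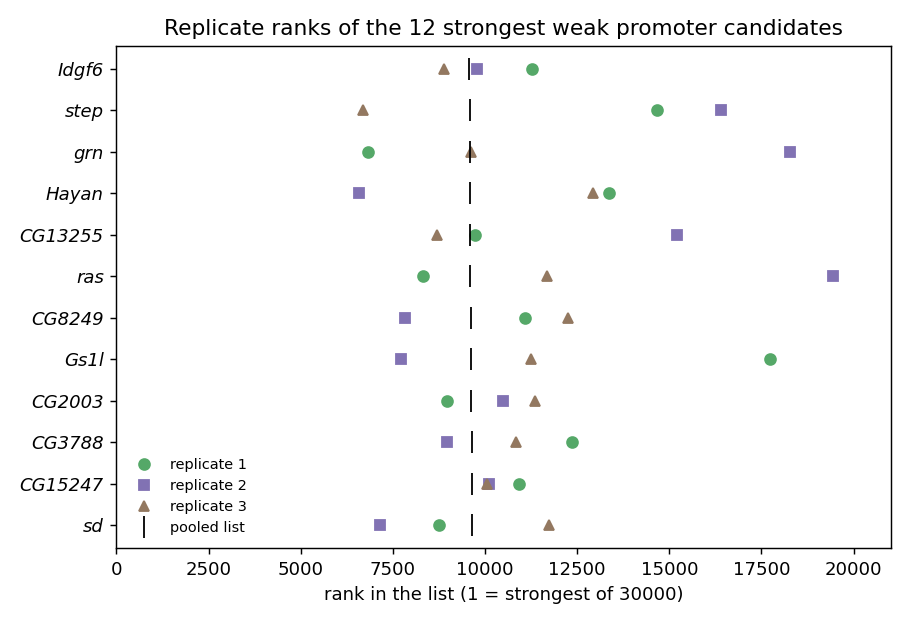
Ranks of the 12 strongest weak promoter candidates in replicates 1, 2 and 3 (points) and in the pooled list (bars); the x axis is the rank in a list of 30000, where 1 is the strongest. The pooled ranks run from 9575 to 9641, while the replicate ranks of single genes spread from 6579 at Hayan to 19430 at ras.

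Over all members the replicates ranked the regions alike on average. The median rank was 14609 in replicate 1, 14531 in replicate 2 and 14961 in replicate 3 for the weak candidates, against 4302.5, 4374 and 4341 for the reproducible promoter peaks. Among the strongest 9569 candidates of a replicate were 176 members (13.2%) in replicate 1, 199 (14.9%) in replicate 2 and 128 (9.57%) in replicate 3. In all, 892 members (66.7%) reached that depth in no replicate, 389 (29.1%) in 1, 54 (4.04%) in 2 and 2 (0.150%) in 3. Most candidates were thus weak in every replicate, and about 3 in 10 were strong in a single one. The 2 that reached it in all 3 were named after their values were seen. RanGAP (2L, 19441670 to 19442105), the gene of the GTPase activator of Ran, ranked 7677, 6238 and 9139, and Pak (3R, 6352736 to 6353171), a kinase gene downstream of Rac and Cdc42, ranked 8303, 8858 and 9066. Their pooled ranks were 9772 and 9754. The candidates with the most even ranks were psq, CG44837 and Npl4. psq, whose product binds GAGA repeats, ranked 12235, 12015 and 12123. At Npl4, which encodes a cofactor of a ubiquitin-dependent segregase, the region was weak throughout, at 26110, 26701 and 26267.

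The further down the pooled list, the smaller was the share of candidates present in all replicates, and in the stronger bins of rank the share was smaller at promoters than elsewhere. Of 18657 pooled candidates that overlapped no reproducible peak, 2685 (14.4%) lay at a coding TSS, and 1337 of these (49.8%) had a candidate in all 3 replicates, while 965 (35.9%) had one in 2, 345 (12.8%) in 1 and 38 (1.42%) in none. Away from coding TSSs, 7331 of 15972 (45.9%) had one in all 3. Replicate 1 supported fewer promoter candidates than the others, with 1814 (67.6%) against 2237 (83.3%) in replicate 2 and 2235 (83.2%) in replicate 3. Between ranks 9000 and 12000 the share in all 3 was 80.9% at promoters (95% Wilson interval 77.2 to 84.1) and 92.3% elsewhere (90.8 to 93.5). Between 18000 and 21000 it was 36.9% (32.1 to 42.0) at promoters and 45.1% (43.1 to 47.1) elsewhere. Between 24000 and 27000 the order was the other way round, with 23% (18.6 to 28.0) at promoters and 16.4% (15.0 to 17.9) elsewhere. This share is what chose the members, so no test was made.

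**Figure D2:**
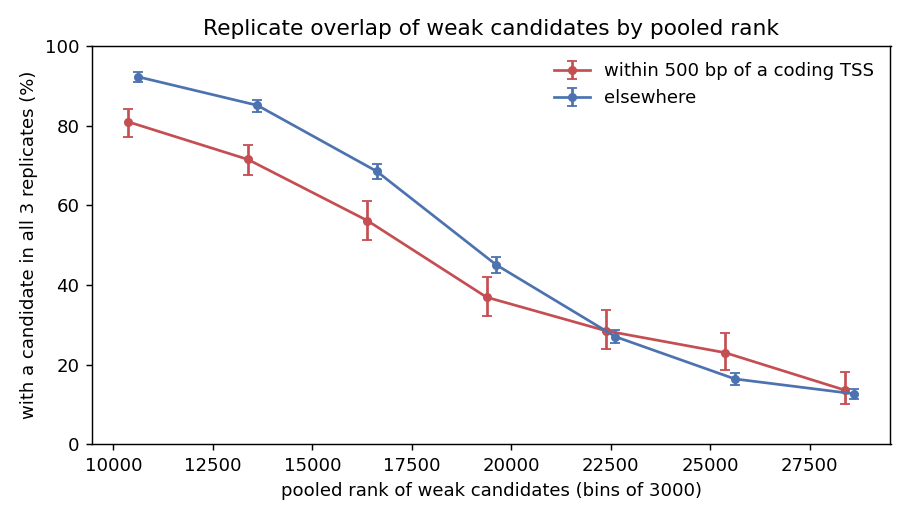
Share of weak candidates with an overlapping candidate in all 3 replicates (y axis, percent) by pooled rank (x axis, bins of 3000), at coding TSSs and elsewhere; bars are 95% Wilson intervals. The promoter share falls from 80.9% in the strongest bin to 13.6% in the weakest, and lies below the share elsewhere in the 4 strongest bins.

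Where a weak candidate was present, the replicates often placed its summit differently. The 3 replicate summits spanned a median of 115 bp in the weak promoter candidates, against 36 bp in the reproducible promoter peaks and 108 bp in weak candidates away from coding TSSs. The summits of CHES-1-like, a forkhead factor gene, and of ras spanned 1 bp, and those of Pdcd4, a gene of a translation inhibitor, spanned 2 bp. In contrast the span at Eip75B was 43 bp and that at Trl was 263 bp. A span of 100 bp or less was found in 65.5% of the 446 strongest members, 51.9% of the 445 next and 21.1% of the 446 weakest, so summit placement moved with signal. After members were thinned to 1 in 500 bp, 52.2% of 1116 weak promoter candidates had a span of 100 bp or less, against 87.6% of 2629 reproducible promoter peaks, with no p given because the span moved with the signal that chose the members. Against 54.2% of 5999 weak candidates elsewhere the difference of -1.92 percentage points did not pass (adjusted p = 0.269, by Fisher's exact test, two-sided). These classes were not matched by signal, with which the span moved. Between pooled ranks 9000 and 12000 lay 403 of 1337 members and 1488 of 7331 candidates elsewhere, before thinning. The near shares thus do not show like summit placement. The direction of the difference was not the same in every run. The stronger part of the members alone gave a difference of 9.73 points. Only the members were cut by signal in that run, and the span moved with signal, so it cannot test the direction. Leaving out replicate 1 gave 0.870 points (exact test, adjusted p = 0.486), and leaving out replicate 2 gave -2.91 points (exact test, adjusted p = 0.0361).

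Summits of weak candidates lay downstream of the start site more often than those of reproducible peaks. With upstream positions negative, the median position was -38 bp (quartiles -203 and 48 bp) in weak promoter candidates and -82 bp (quartiles -201 and -3 bp) in reproducible promoter peaks. Of the weak candidates 62.2% (694 of 1116; 95% Wilson interval 59.3 to 65) lay upstream, against 75.2% (1978 of 2629; 73.6 to 76.9) of the reproducible promoter peaks. This difference of -13.1 percentage points passed (odds ratio 0.541, adjusted p = 3.85e-15 over 9 comparisons, by Fisher's exact test, two-sided). With each replicate's own summits the upstream share was 60.9%, 63.0% and 63.0% in weak candidates and 75.8%, 75.4% and 74.1% in reproducible peaks. The regions were the same in all 3, so these values show only how summit placement moved the share. The 446 strongest members had 65.7% upstream, the 445 next 60.4% and the 446 weakest 57.2%. A nearby reproducible peak, which members may not overlap, moved with the side. Of the 266 members with a reproducible summit within 1000 bp 45.9% lay upstream, against 64.9% of the other 1071. For members over 1000 bp from a reproducible summit the difference from reproducible promoter peaks was -8.83 points and still passed (exact test, adjusted p = 8.42e-07). Accordingly 462 weak candidates (34.6%) had their summit in an untranslated exon, against 25% of reproducible promoter peaks, and 460 (34.4%) lay outside coding genes, against 45.7%. A summit in an intron was found in 27.7% and 28.1%, and one in a coding exon in 44 weak candidates (3.29%), against 1.23%.

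**Figure D3:**
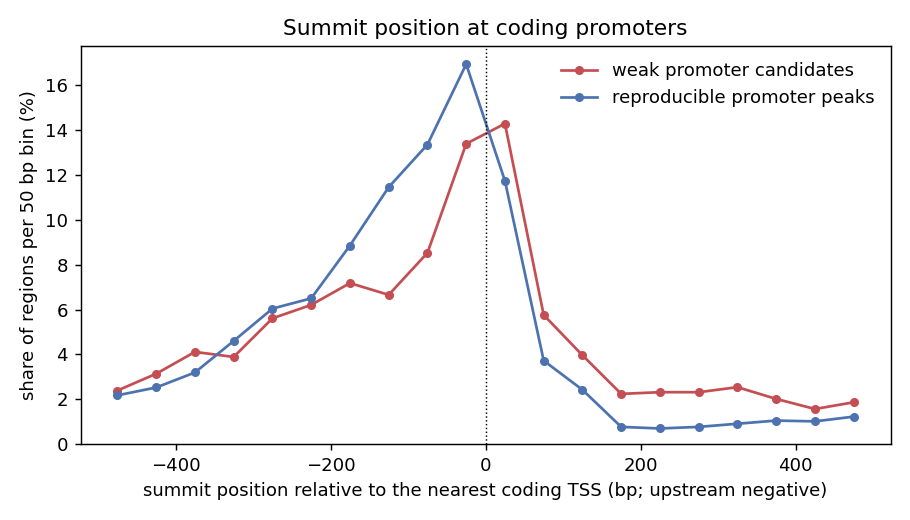
Summit position relative to the nearest coding TSS (x axis, bp, upstream negative) of weak promoter candidates and reproducible promoter peaks; the y axis is the share of regions in each 50 bp bin. The weak candidates have more summits downstream of the TSS, with a median at -38 bp against -82 bp for the reproducible peaks.

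The share within 100 bp of the TSS differed by less. It was 42.7% in weak candidates and 46.3% in reproducible promoter peaks, and the difference of -3.55 points did not pass in the two-sided Fisher's exact test (exact test, adjusted p = 0.0726). It passed without replicate 2 (-4.72 points, exact test, adjusted p = 0.00743), without replicate 3 (-3.72 points, exact test, adjusted p = 0.0456) and without the X chromosome (-6.58 points, exact test, adjusted p = 0.00208). In the stronger part of the members, set against reproducible peaks that were not cut by signal, the difference was 1.75 points. Weak candidates that had a candidate in all replicates lay upstream slightly more often than the 1237 thinned weak promoter candidates that were missing from a replicate, at 62.2% against 58.6%, which did not pass (adjusted p = 0.108, by Fisher's exact test, two-sided). That difference passed without replicate 2 (5.64 points, exact test, adjusted p = 0.00743) and without replicate 3 (4.23 points, exact test, adjusted p = 0.0492). For members over 1000 bp from a reproducible summit it was 7.79 points and passed as well (exact test, adjusted p = 0.000433). The share of weak promoter candidates present in all 3 replicates fell from 80.9% in the strongest bin of pooled rank to 13.6% in the weakest. Among members the upstream share fell with signal too, from 65.7% to 57.2%. The classes were not matched by rank, so these values cannot separate presence in all replicates from rank.

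Weak candidates were rarer at divergent promoters, where coding TSSs of both strands lie within 500 bp of the summit. Of the weak promoter candidates 91 of 1116 (8.15%; interval 6.69 to 9.91) stood at such a promoter, against 578 of 2629 reproducible promoter peaks (22.0%; 20.4 to 23.6). The odds ratio was 0.315 (adjusted p = 3.92e-26, by Fisher's exact test, two-sided). The share from replicate summits in the same regions was 8.45% ± 0.583 and 21.8% ± 0.220 (SD, n = 3 each). It was 9.64% in the 446 strongest members, 7.19% in the 445 next and 7.85% in the 446 weakest, so each was below the reproducible peaks. Many weak candidates had a reproducible summit not far off, which is also where the rule placed a limit by barring overlap. A reproducible summit lay within 500 bp of 13 members, within 1000 bp of 266 (19.9%) and within 5000 bp of 866 (64.8%), at a median distance of 2920 bp. Within 1000 bp one was found for 16% of weak promoter candidates missing from a replicate and for 14.3% of weak candidates elsewhere. The members also lay near each other. The 1337 regions merged into 1107 separate ones, and 1329 of them (99.4%) had the same deposited width of 436 bp.

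The DNA under weak promoter summits was richer in G and C. Median AT content of the 101-base windows was 54.5% in weak promoter candidates, 59.4% in reproducible promoter peaks, 60.4% in weak candidates elsewhere and 53.5% in weak promoter candidates missing from a replicate. At or above the median of all coding TSSs, 56.4%, were 44.0% of the weak promoter candidates, against 60.9% of reproducible promoter peaks (adjusted p = 6.97e-21, by Fisher's exact test, two-sided). Against weak candidates elsewhere, of which 64.5% were at or above it, the adjusted p was 2.68e-36. With replicate summits in the same regions the share was 44.0% ± 0.696 in weak candidates and 61.0% ± 1.25 in reproducible peaks (SD, n = 3 each). AT content also moved with summit location. Its median among members was 52.5% in untranslated exons, 46.0% in coding exons, 55.4% outside coding genes and 56.4% in introns. Summit location differed between members and reproducible promoter peaks, and its part in this difference and in the short words below was not tested. Among weak promoter candidates alone, presence in all replicates made little difference. At or above the median were 44.0% of those present in all and 41.7% of those missing from a replicate (adjusted p = 0.278, by Fisher's exact test, two-sided). With a TSS window of 1000 bp that difference was 4.97 points and passed (exact test, adjusted p = 0.00407). With 250 bp it was -0.162 points. These classes were not matched by pooled rank.

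Short words showed the same composition. Of 2080 6-mers, 101 (4.86%) differed between weak candidates and reproducible promoter peaks at an adjusted p under 0.05, of which 67 were less frequent in weak candidates and 34 more frequent. Of the 67, 59 consisted of 5 or 6 A or T bases, and all 34 of the others held 3 or fewer. ATTTAA was found in 10.3% of weak candidate windows and 19.9% of reproducible peak windows (adjusted p = 3.69e-10, by Fisher's exact test, two-sided), and TTAAAA in 12.8% and 22.0% (exact test, adjusted p = 2.38e-08). ATATTA followed, with 7.17% in weak candidates and 13.2% in reproducible peaks. TATTAA had 7.97% and 14.2%. For TTTAAA the shares were 7.53% and 13.6%. The 5 words with the smallest p were all built of A and T alone. The most different word that was more frequent was CCAACG, with 6.18% against 2.55% (exact test, adjusted p = 7.59e-05). The count was 228 without replicate 1 and 153 without replicate 3, where 1904 and 1500 members entered in place of 1337.

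TATA box and BEAF-32 cores were less frequent under weak candidate summits, and GAGA matches more frequent. Of 20 motifs, searched on both strands, 3 (15%) passed against reproducible promoter peaks. The TATA box (TATAAA) was found in 10.9% of weak candidate windows and 15.3% of reproducible ones (adjusted p = 0.00896, by Fisher's exact test, two-sided). The BEAF-32 core (CGATA), which overlaps the DRE core (TATCGA), was found in 14.0% and 18.1% (exact test, adjusted p = 0.0166). GAGA (GAGAG) was the only one of the 3 that was more frequent in weak candidates, with 21% against 16.7% (exact test, adjusted p = 0.0166). AT content differed between the classes as well, and its part in these calls was not tested. Without replicate 2 the call of GAGA (exact test, adjusted p = 0.0863) and that of the BEAF-32 core (0.0661) were lost and 1 motif passed. Without replicate 1 the BEAF-32 core did not pass (0.196). Neither motif passed with 50% overlap or with the stronger members. Motif 1, the binding word of M1BP (GGTCACAC), was found in 1.88% of weak candidates and 2.02% of reproducible peaks, a difference of less than a point.

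Promoter windows, placed by the TSS and not centred on the summit, were compared next. Matches to GAGA and to the CA repeat were more frequent at promoters with a weak candidate than at promoters with none. Those to the TATA box and the DRE core were less frequent. A motif counted when its word stood anywhere in the window on either strand, so 1 GAGAG was enough. The median number of GAGA matches was 1 at member promoters and 0 at promoters with no candidate. The windows ran from 250 bp upstream to 50 bp downstream of the TSS nearest to a member, 1 per gene, and were set beside those of 9005 genes with no pooled candidate at any TSS, for which the most 5′ TSS was taken. The TSS rule thus differed between the classes. Values with the most 5′ TSS in both, and for genes with a single TSS, were added after the data were seen and follow at the end of the paragraph. Of the 20 motifs, 12 (60%) passed. GAGA was found in 521 of 1032 member promoters (50.5%), against 2302 of 9005 promoters with no candidate (25.6%) and 29.8% of all 13945 coding promoters (odds ratio 2.97 and adjusted p = 8.10e-57 for member against no candidate, Fisher's exact test, two-sided). The CA repeat (CACACACA) was found in 9.30% and 3.36% (all promoters 4.04%, exact test, adjusted p = 3.21e-15). The E-box of motif 5 (CAGCTG), with 21.1% and 16% (all 17.7%), the GC box (GGGCGG), with 7.95% and 5.40% (all 5.97%), and the Initiator (TCAGTT), with 31.1% and 26.5% (all 26.2%), were also more frequent at member promoters. The other 7 were less frequent. The TATA box was found in 31.2% of member promoters and 48.4% of those with no candidate (all 45.9%, exact test, adjusted p = 2.49e-25), and the DRE core in 18.9% and 27.6% (all 27.7%, exact test, adjusted p = 3.95e-09). The remaining 5 were the homeobox core (TAATTA), the BEAF-32 core, the PHO core (GCCATT), the GATA site (AGATAA) and Su(H) (TGGGAA). Median AT content was 55.5% in member promoters and 63.1% in promoters with no candidate, and its part in these calls was not tested. Motif 1, the CACGTG E-box, AP-1 (TGANTCA), the nuclear receptor core, the CRE core (TGACGT), Zelda (CAGGTA), the ETS core (CCGGAA) and the A tract (AAAAAAA) did not pass. With the most 5′ TSS in both classes 10 motifs passed, and among genes with a single TSS 9 passed. GAGA then had 46.5% at member promoters against 25.6% with the most 5′ TSS, and 45.3% of 419 against 25.2% of 7493 among genes with a single TSS. The CA repeat difference was less than 0.5 times as large, with 6.30% against 3.36% by the most 5′ TSS (exact test, adjusted p = 5.16e-05) and 5.73% against 3.26% for a single TSS (exact test, adjusted p = 0.0257). The GATA site and Su(H) did not pass in either (exact tests, adjusted p = 0.102 and 0.142 by the most 5′ TSS, 0.970 each for a single TSS). Among genes with a single TSS the GC box was lost and turned round, with 5.25% against 5.38% (exact test, adjusted p = 1), and the GATA site also turned round, with 20.29% against 20.01%.

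GAGA was more frequent at member promoters than in each other class of promoter compared. Against 2092 promoters with a reproducible peak and no member, a comparison added after the data were seen, 7 of 20 motifs (35%) passed. GAGA had 50.5% against 43.1% (adjusted p = 0.000758, by Fisher's exact test, two-sided), the Initiator 31.1% against 26.1% (exact test, adjusted p = 0.0112) and the CA repeat 9.30% against 6.26% (exact test, adjusted p = 0.0104). Lower in member promoters were the TATA box, at 31.2% against 40.6% (exact test, adjusted p = 6.34e-06), and the DRE core, at 18.9% against 25.3% (exact test, adjusted p = 0.000594). The BEAF-32 core and the homeobox core were also lower. Against 1008 promoters whose weak candidate was missing from a replicate, 1 of 20 (5%) passed, and this was GAGA, with 50.5% against 41.2% (exact test, adjusted p = 0.000584). Member genes were left out of both classes, while member promoters kept genes that also had a reproducible peak. Median AT content was 55.5% in member promoters, 59.5% in reproducible ones and 57.1% in those missing from a replicate. The part of AT content, pooled rank and the number of TSSs in these calls was not tested. Promoters with 3 or more GAGA matches made up 17.7% of member promoters, 15.4% of reproducible, 11.1% of those missing from a replicate and 3.69% of those with no candidate. On X the share was 43.0% in member promoters and 37.4% in reproducible promoters, which did not pass (adjusted p = 0.180, by Fisher's exact test, two-sided), while on the other arms it was 53.0% and 44.3% (exact test, adjusted p = 7.55e-05).

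**Figure D4:**
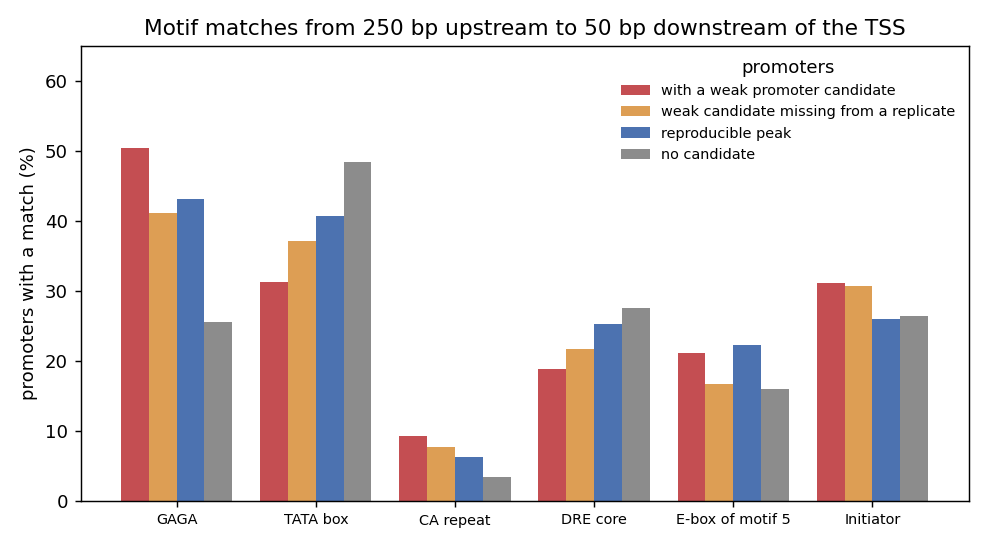
Share of promoter windows (y axis, percent) with a match to 6 of the 20 motifs (x axis) in 4 classes of promoter. GAGA reaches 50.5% at promoters with a weak candidate and 25.6% at promoters with no candidate, while the TATA box runs the other way, at 31.2% and 48.4%.

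The X chromosome held more of the weak promoter candidates than of the other classes, a comparison added after the data were seen. Of the thinned members 285 of 1116 (25.5%; 95% Wilson interval 23.1 to 28.2) were on X, against 18.8% of reproducible promoter peaks, 19.4% of weak candidates elsewhere and 20.5% of weak promoter candidates missing from a replicate. Two-sided Fisher's exact tests, adjusted over the 3 comparisons, gave p = 8.50e-06 for the reproducible peaks, 8.50e-06 for the weak candidates elsewhere and 0.00371 for those missing from a replicate. Per gene, 285 of 2196 coding genes on X (13%) had a member. The shares on the other long arms were 5.95% on 2L, 6.98% on 2R, 7.96% on 3L and 7.75% on 3R. On chromosome 4, 1 of 80 genes had one.

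Of 13945 coding genes, 1126 (8.07%) had a weak candidate within 500 bp of a TSS, and 3217 (23.1%) had a reproducible summit there. Of the 1126 genes, 833 (74.0%) had no reproducible summit, so that 4050 genes (29%) had one or the other. There was no weak candidate at CG3919 itself. Most genes (836) had 1 candidate, 241 had 2 and 49 had 3 or more. The most, 6 each, stood at the many TSSs of sd and of IP3K2, an inositol trisphosphate kinase gene. Genes with both kinds of region were long, with a median span of 14703 bp, and 3.75% of them had a single TSS. Genes with a weak candidate alone spanned 5236 bp and had a single TSS in 55.3%, against 1757 bp and 83.2% for genes with no pooled candidate. Gene length and the number of TSSs therefore moved with having a candidate, and their part in the counts of gene lists below was not tested.

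In 30 gene lists the share of genes with a weak candidate ran from 0% in 7 lists to 30.8% in glycolysis genes, beside 8.07% of all coding genes. In the list of Hox and patterning genes, 10 of 33 (30.3%) had a weak candidate and 7 of 33 (21.2%) a reproducible summit, with 3 in both. A reproducible summit stood at 23.1% of all coding genes. The 10 were sd, the Notch ligand gene Ser, the hedgehog ligand gene hh, Antp, inv, en, dpp, hb, N and kni. Ser (3R, 27194019 to 27194454) ranked 11518, 7327 and 9518 in replicates 1, 2 and 3, and hh (3R, 23141823 to 23142258) ranked 14039, 5815 and 12555. In both, replicate 2 gave the region its highest place and replicate 1 its lowest. Antp had a pooled rank of 9921, and the neighbours inv and en had 10814 and 10831. At kni, a gap gene, it was 15949.

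In the ecdysone list, drawn up because the hormone drives the prepupal stage, 7 of 27 genes (25.9%) had a weak candidate and 18 of 27 (66.7%) a reproducible summit. The shares of all coding genes were 8.07% and 23.1%. The 7 were crol, Eip75B, Eip78C, Hr4, Eip93F, Kr-h1 and ImpL2, of which 4 had both kinds of region. The zinc finger gene crol ranked 10228, 14783 and 9923. Eip75B, which encodes the nuclear receptor E75, ranked 18929, 9502 and 7545, and Eip78C, another nuclear receptor gene, ranked 24638, 8915 and 14525. Replicate 1 was the lowest by far for both receptors. Glycolysis genes had 4 of 13 (30.8%), with Tpi, PyK, Ald1 and Hex-A, and 8 of 13 (61.5%) had a reproducible summit. The candidate at Tpi, the gene of triosephosphate isomerase, ranked 6208, 4239 and 11046 and so stood above its pooled rank of 11944 in all 3 replicates, whereas PyK, at 17050, 15186 and 29264, was weak.

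Genes of the cell cycle and of Polycomb and Trithorax complexes were also represented. Of 25 Myc and cell cycle genes, 5 (20%) had a weak candidate: fzr, stg, CycB, Myc and E2f1. fzr, which encodes an activator of the anaphase-promoting complex, had even ranks of 11718, 11853 and 12351, while stg, the gene of the Cdc25 phosphatase, ranked 17614, 6312 and 8972. In the Polycomb and Trithorax list 4 of 29 (13.8%) had one: ph-p, mor, Su(z)2 and phol. mor, which encodes a subunit of the Brahma remodelling complex, ranked 3837, 14137 and 8522, and ph-p, of the PRC1 complex, ranked 4098, 16161 and 11500. These 2 were high in replicate 1, unlike Eip75B and Eip78C. The region at mor lay within 500 bp of a TSS of mor but nearer to that of Hel89B, on the opposite strand. A reproducible summit stood 535 bp away. The region counts for mor by the 500 bp rule and cannot be assigned to mor alone. Of 22 insulator and promoter factor genes, 13 (59.1%) had a reproducible summit, against 23.1% of all coding genes. A weak candidate stood at 2 (9.09%), near the 8.07% of all coding genes. One was Adf1, whose product shares the MADF domain with CG3919 and which ranked 11484, 10324 and 11405. The other was Trl, the GAGA factor gene, at 11869, 7698 and 12209.

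Neuronal genes had 6 of 27 (22.2%) with a weak candidate: Nrg, Syt1, Sh, fne, para and brp. None of the 6 had a reproducible summit, as was the case for 74.0% of all genes with a weak candidate. In the list 7 of 27 (25.9%) had a reproducible summit, near the 23.1% of all coding genes. Insulin and TOR genes had 4 of 24 (16.7%). The ion channel gene Sh ranked 16312, 10278 and 13706. Autophagy had 3 of 23, heat shock 3 of 26, cell death 2 of 17 and fat body and lipid storage 2 of 19. The cell death pair were Diap1, an inhibitor of apoptosis, at pooled rank 10072, and rpr, which triggers it, at 11156. Muscle genes, with 2 of 23 (8.70%), and Rab GTPases, with 3 of 36 (8.33%), lay near the share of all coding genes. Cuticle protein genes had 10 of 121 (8.26%) with a weak candidate, near the 8.07% of all coding genes. A reproducible summit stood at 2 of 121 (1.65%), against 23.1% of all coding genes, and no gene had both. Among all genes with a weak candidate 26.0% had both. Of the 10 with a weak candidate, Lcp65Ad ranked 12824, 11490 and 12510, and Cpr72Ea ranked 9946, 10952 and 14013. Chemoreceptors showed 5 of 180 (2.78%) with a weak candidate and 2 of 180 with a reproducible summit, and cytochrome P450 genes 5 of 85 (5.88%) and 7 of 85.

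Cytosolic ribosomal protein genes had 2 of 86 (2.33%), RpL17 and RpLP0, and 64 of 86 (74.4%) had a reproducible summit, including both of these. The shares of all coding genes were 8.07% and 23.1%. Mitochondrial ribosomal protein genes had 2 of 75, respiratory chain and ATP synthase genes 2 of 84, and translation initiation factor genes 1 of 44. DNA replication genes, with 2 of 32 (6.25%), and actin and tubulin genes, with 1 of 17 (5.88%), lay near the background. No weak candidate was found at 32 proteasome genes, 32 aminoacyl-tRNA synthetase genes, 33 vacuolar ATPase genes, 41 TFIID and Mediator genes or 29 spliceosomal protein genes, where 17.2% to 31.3% had a reproducible summit. Nor was there one at 27 serine protease genes of the Jonah, trypsin and seminase families or 14 antimicrobial peptide genes, and no reproducible summit stood there either. The lists are small, and their shares are a description beside the background of all coding genes.

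**Figure D5:**
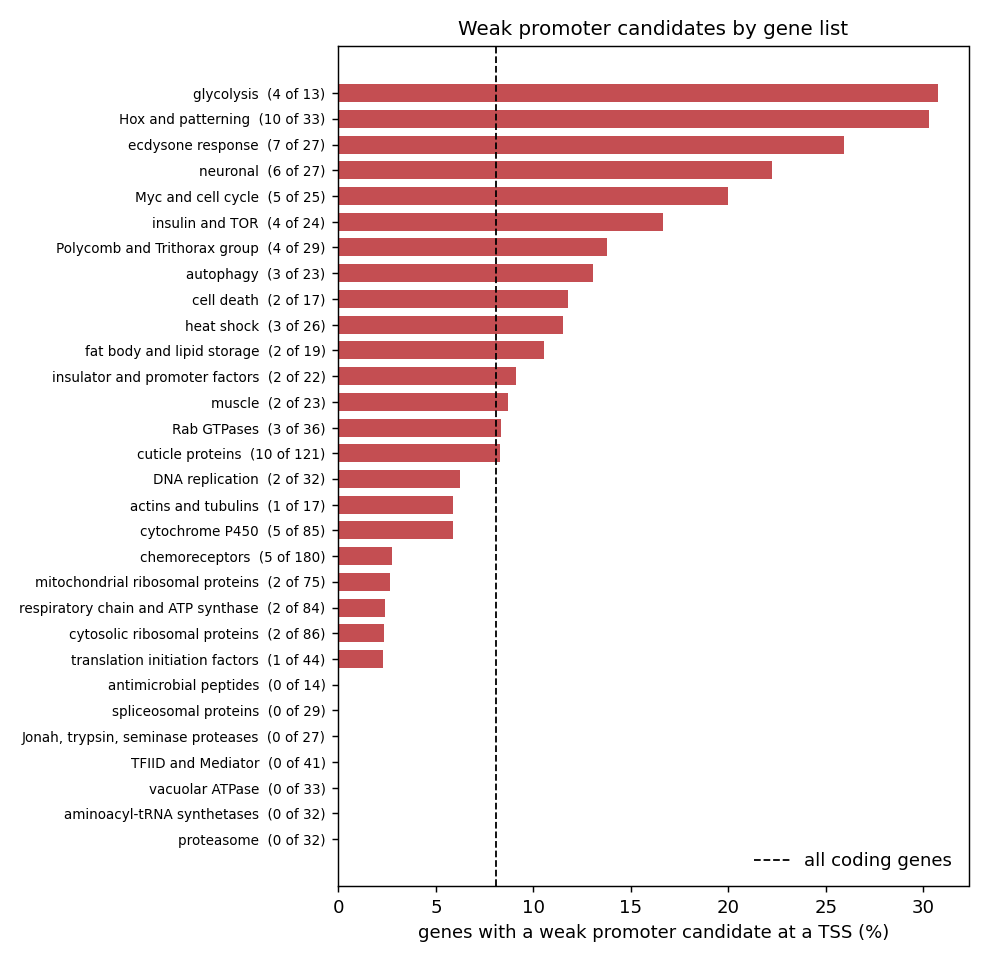
Share of genes with a weak promoter candidate at a TSS (x axis, percent) in 30 gene lists, with counts in parentheses; the dashed line is the share of all coding genes, 8.07%. Glycolysis (4 of 13) and Hox and patterning genes (10 of 33) have the highest shares, and 7 lists have no gene with a weak candidate.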

How the data were processed

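Transcription factor ChIP-seq lists of 3 biological replicates were used as deposited. Fragments were 200 to 800 bp, per the labels. Per the deposited provenance texts, a replicate list was made from the alignments of that replicate with 1 control file, the same for all 3, all replicates together gave the pooled list, and an IDR threshold gave the reproducible peaks. Which aligner and caller were run, in which versions and with what IDR threshold, is not given in the sources used here, nor is the scale of the signal. The authors deposited a peak signal, used here to rank regions within a list, and −log10 q-values, used as a description. Read depth is unknown, and features of the shared control would appear in every list. The dm3 lists were not used here.

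Regions were read on dm6 with Ensembl release 115 (BDGP6.54) and the RefSeq genome of the same assembly, on 6 chromosome arms. Overlap meant at least 1 bp, and untranslated exons are exon bases of coding genes outside any coding sequence. Of regions within 500 bp of each other the strongest was kept (thinning) before shares were set against each other with Fisher's exact test (two-sided), adjusting by Benjamini-Hochberg over 9 region comparisons, 20 motifs or 2080 6-mers (both strands as 1). Regions are not replicates: p-values compare regions within 1 map. The values per replicate beside them use the same regions, with the overlapping replicate summit nearest to the pooled summit. Their spread covers summit placement within fixed regions only, not a new choice of regions in each replicate. Wilson intervals are at 95%. The scripts were tested on simulated data.

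The members, the motifs and the 30 gene lists were chosen with earlier results of these data known; 359 of 370 written names matched a coding gene. The named genes are the 12 strongest members, 5 on each side of the boundary, up to 3 per list with the strongest member, the 3 with the smallest summit span and the 3 with the most even ranks; CG3919; and, by smallest p, 3 motifs and 5 6-mers per comparison. Names outside the rule fill small counts and were picked with their values in view. Of the strongest 12, windows with untranslated exon bases or on an arm not shown here were left out of the printed sequences. Alternatives covered the TSS window, overlap, midpoint, thinning, stronger members, transcripts, sequence window and each replicate left out. Software was scipy 1.17.1, pandas 2.3.3, numpy 2.4.6 and matplotlib 3.10.9 under Python 3.11.15.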

Additional observations from a re-analysis of the deposited data

How the results depend on the processing

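Lower shares upstream of the TSS (-14.8 to -8.83 percentage points), at divergent promoters (-15.7 to -10.5) and at or above the median AT content against reproducible promoter peaks (-19.7 to -14.9) kept their call in every alternative run, as did AT content against weak candidates elsewhere (-25.8 to -15.2). The stronger members alone were 668 regions at 684 genes, and the classes set against them were not cut by signal. These members gave 1.75 points for the share within 100 bp, -0.584 for AT content against candidates missing from a replicate and 9.73 for summit agreement. The upstream share against those missing from a replicate differed by 5.60 points (exact test, adjusted p = 0.0246), and 56 6-mers and 1 motif passed. A TSS window of 250 bp gave 0.677 points within 100 bp and -0.162 for AT content against those missing from a replicate, and 1000 bp gave -7.33, 4.97 and, for summit agreement with candidates elsewhere, -3.07 (exact test, adjusted p = 0.0329). Requiring 50% of both lengths to overlap gave 29 6-mers, 1 motif and 1.99 points for summit agreement. Without thinning the share within 100 bp differed by -3.79 points (exact test, adjusted p = 0.0349) and 5 motifs passed, and wider sequence windows gave 264 6-mers and 6 motifs. Of the alternatives added after seeing the data, members over 1000 bp from a reproducible summit gave -5.25 points within 100 bp and 7.79 for the upstream share against those missing from a replicate (exact test, adjusted p = 0.000433), and leaving out X gave -6.58 within 100 bp. Of 12 motifs that passed at promoters, 10 passed with the most 5′ TSS in both classes and 9 for genes with a single TSS. Leaving out each replicate in turn moved the 6-mer count between 123 and 228, the motif count between 1 and 4, the share within 100 bp between -4.72 and -2.06, summit agreement with candidates elsewhere between -2.91 and 0.870, and the upstream share against those missing from a replicate between 2.43 and 5.64. Why these values moved was not tested. The number of members changed too, from 1337 to 668 with the stronger members and 972 with the 50% overlap. It was 1904, 1572 and 1500 without replicates 1, 2 and 3, and 944 and 1972 with TSS windows of 250 and 1000 bp. GAGA at summits lost its call with 50% overlap (exact test, adjusted p = 0.427), the stronger members and the wider window, and the BEAF-32 core with 50% overlap (0.132) and the stronger members (0.0644). GAGA, the CA repeat and the TATA box at promoters kept their calls in every alternative run, but the CA repeat difference was 2.93 points with the most 5′ TSS and 2.47 with a single TSS, against 5.94. No paired analysis was possible because the replicates form 1 group. The midpoint for replicate summit agreement was not run, and read depth cannot be set against any of these values.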
